A study of Mus musculus with 8 samples.

Results

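Retinoic acid metabolism and signalling was followed through 9 genes out of 32543 genes in the deposited tables. The list was drawn up by the roles of the genes, with earlier results of these data known. Cyp26b1 stands for degradation, Aldh1a3 for synthesis, Dhrs3 for the reduction of retinal, Crabp1 and Crabp2 for intracellular binding, and Rara, Rarb, Rxra and Rxrg for the nuclear receptors. RNA was sequenced from sorted GFP-expressing cells of the mouse amygdala in E16.5 embryos, taken as intercalated cells (ITCs), the small GABAergic clusters around the basolateral amygdala. Controls were Tshz1 GFP/+ embryos and knockouts were Tshz1 GFP/RA embryos, both on an outbred background, with 4 libraries per genotype. Both groups carry the GFP allele of Tshz1, so the controls are not wild type, and the letters RA belong to an allele name that the labels do not spell out. Each library came from a pool of embryos of 1 genotype, and a title prefix (NX, NY, QT or RM) is shared by 1 control and 1 knockout library. The labels do not say what the prefix marks or whether the pools came from separate litters, so the p-values measure the spread between these pools only.

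Retinoic acid is made from retinol by way of retinal. Retinol dehydrogenases carry out the first oxidation, the reductase Dhrs3 can turn retinal back into retinol, and the Aldh1a enzymes complete the synthesis. Crabp proteins bind the acid in the cytoplasm, Cyp26 enzymes break it down, and in the nucleus it binds RAR receptors that pair with RXR on response elements made of repeated hexamers. The ventrolateral forebrain and the developing striatum are known as places of retinoid signalling in the embryo, and Cyp26 enzymes are known for shielding cells from the signal.

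The promoter windows of these genes were searched because the pathway is known to act on some of its own members through response elements, which can lie in promoters. RefSeq windows of 300 bases (250 before to 50 after an annotated start, GRCm38.p6) matched 7 of the 9 genes, with 14 windows between them, and Aldh1a3 and Crabp2 were not matched. The search covered both strands for direct repeats of 4 forms of the receptor hexamer with a spacer of 1, 2 or 5 bases. The form AGGTCA is the classical one. The search also took the variant that begins with G, GGGTCA, as well as 2 variants with T in the third place. These read AGTTCA when the first letter is A, or otherwise GGTTCA when it is G. Among all 32851 windows, 0.222% held a repeat with a spacer of 1, 0.268% with a spacer of 2, 0.0974% with a spacer of 5, and 0.588% held any of these. A single hexamer of these forms occurred in 43.7% of all windows and in 6 of the 14 windows of the listed genes.

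The only direct repeat among the 14 windows was in Rarb, whose response element is the textbook example of the class. It runs from 53 to 37 bases before the RefSeq start, at chr14:16575506-16575535 with its flanks, minus strand, inside exons of longer Rarb transcripts. Capitals mark the hexamers, separated by 5 bases.
Rarb direct repeat: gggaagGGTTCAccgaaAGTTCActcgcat

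The stretch upstream of Cyp26b1 is shown because this gene had the greatest difference between genotypes among the 9. It covers chr6:84593909-84594060 (GRCm38.p6, minus strand), 152 bases from 250 to 99 before the RefSeq start, where no annotated exon lies, and 65.1% of its bases are G or C. Capitals mark the letters TATAAA, which begin 139 bases before the RefSeq start and 41 bases before the GENCODE start. These letters occur on either strand of 13.6% of all windows. None of the 4 hexamers lies in the Cyp26b1 window, which says only that these letters are not in these 300 bases.
Cyp26b1 upstream: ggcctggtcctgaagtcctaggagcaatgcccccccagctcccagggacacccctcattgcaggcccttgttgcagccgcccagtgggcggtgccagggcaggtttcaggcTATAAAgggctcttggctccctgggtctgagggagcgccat

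The libraries held between 5785549 and 14535810 rounded expected counts, and 3 counts, the floor of detection used here, were worth 0.186 to 0.545 CPM (counts scaled to the library total). The disrupted gene Tshz1 lay between 239.96 and 492 CPM in the controls and between 55.9 and 121 CPM in the knockouts (log2 fold change -2.27, edgeR quasi-likelihood test, adjusted p = 0.0388), in the direction of the labels. All 12 markers listed for ITCs, among them Foxp2, Meis2 and Gad2, had counts in every library. Their sum, which includes Tshz1, was 3118 to 5332 CPM in controls and 2824 to 3761 CPM in knockouts. It was lower in the knockout of 4 of 4 prefixes (2 of 12 markers fitted higher, 10 lower, 1 called). The called marker was the disrupted gene Tshz1 itself. In QT the sum was 4043 (control) and 3761 CPM (knockout), and Tshz1 was 457 and 78.1 CPM. Without Tshz1 the order in QT would turn round. The 8 progenitor markers summed to 148 (control) and 233 CPM (knockout) in the NX libraries, against 427 to 884 CPM in the other 6 libraries. In bulk RNA, fewer cells of a type and less RNA per cell cannot be told apart.

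Cyp26b1, the enzyme that oxidises and clears retinoic acid (chromosome 6, 84571414 to 84593908, minus strand, GRCm38), was higher in every knockout library than in any control. Its control levels were 26.2 (NX), 25.3 (NY), 28.7 (QT) and 16.4 CPM (RM). Its knockout levels were 499 (NX), 98.1 (NY), 185 (QT) and 54.2 CPM (RM). The controls lay close together, at 24.1 ± 5.38 CPM (SD, n = 4), while the knockouts were spread over a wide range, at 209 ± 201 CPM (SD, n = 4), with NX far above the rest. The genotypes did not overlap, and the knockout library was 19.1-fold higher than its control in NX, 3.87-fold in NY, 6.46-fold in QT and 3.32-fold in RM.

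**Figure D1:**
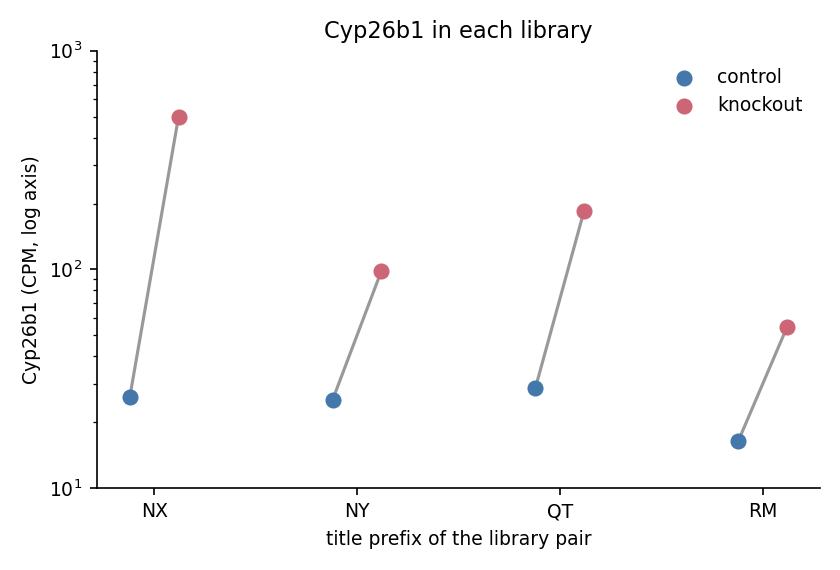
Cyp26b1 in CPM (log axis) in the control and knockout library of each title prefix, joined by a line. The knockouts lie between 54.2 and 499 CPM, all above the controls at 16.4 to 28.7 CPM, and NX shows the greatest gap.

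The fitted log2 fold change of Cyp26b1 was 3.11 (SE 0.56), or 8.63-fold higher in the knockout. Its unadjusted p was 0.00011 and its adjusted p was 0.126 (edgeR's quasi-likelihood test, Benjamini-Hochberg over 14157 genes), so it did not pass the threshold of 0.05. It ranked 3 from the top by log2 fold change and 12 by p among the 14157 tested genes. Leaving out knockout NX brought the value for Cyp26b1 to 2.21 (adjusted p = 0.0961), lower but in the same direction. The call depended on the procedure: Cyp26b1 passed under some alternatives, among them DESeq2 (log2 fold change 3.12, adjusted p = 0.00201) and edgeR with no low-count filter (3.13, adjusted p = 0.0121), and it was the only listed gene to do so in these 2. DESeq2 called 0.299% of its tested genes and edgeR with no filter called 0.0933%.

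The level of Cyp26b1 moved with other measures among the knockout libraries. From the highest to the lowest Cyp26b1 level (NX, QT, NY, RM), the summed progenitor markers were 233, 427, 599 and 884 CPM, and the 5 oligodendrocyte-lineage markers summed to 2.79, 15.2, 36.6 and 53.1 CPM. The remaining Tshz1 RNA was 121, 78.1, 61.6 and 55.9 CPM in the same order. Fabp7 was the largest part of the progenitor sum, at 72.6, 202, 380 and 652 CPM in that order. Nes, Slc1a3 and Hes5 also rose at each step, while Sox2, Pax6, Vim and Hes1 did not. Knockout pools rich in Cyp26b1 RNA were thus those with the lowest progenitor and oligodendrocyte sums and the most Tshz1 RNA. This order was not particular to these lists. Vascular and meningeal markers summed to 1.36, 3.04, 3.89 and 9.98 CPM in it. Markers of medial ganglionic eminence interneurons summed to 52.4, 56.0, 85.1 and 156 CPM. The remaining marker lists did not rise step by step in this order. The part of these measures in the result was not tested. Between genotypes the ranges of these sums overlapped: progenitor sums were 148 to 715 CPM in controls and 233 to 884 CPM in knockouts, with 2 of 7 tested markers fitted higher, 5 lower and 0 called. Oligodendrocyte sums were 0.558 to 58.0 CPM in controls and 2.79 to 53.1 CPM in knockouts, with 1 of 5 markers fitted higher, 4 lower and 0 called. In the controls Cyp26b1 was lowest in RM (16.4 CPM) and similar in the other 3, while their progenitor sums ranged from 148 to 715 CPM.

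In 4 other marker lists most fitted values lay on 1 side, and no marker in them was called. Cycling markers summed to 112 to 643 CPM in controls and 129 to 1044 CPM in knockouts, higher in the knockout of 4 of 4 prefixes, with 5 of 6 fitted higher. Pallial glutamatergic markers summed to 617 to 1067 and 810 to 1580 CPM, also higher in 4 of 4 prefixes, with 6 of 8 fitted higher. Bcl11b was the largest part of this sum in every library, at 575 of 617 CPM in control NX, so the sum mostly follows this gene. In NY, Bcl11b (639 and 825 CPM) and Tbr1 (81.0 and 92.3 CPM) were higher in the knockout, and the remaining markers of the list were lower. Of the markers of medial ganglionic eminence interneurons 4 of 4 were fitted higher (20.8 to 126 against 52.4 to 156 CPM), and of the tested microglia markers 0 of 6 (3.29 to 87.2 against 5.38 to 38.4 CPM). The knockout library highest in Cyp26b1, NX, had the lowest cycling sum of the knockouts (129 CPM), and the part of these lists in the Cyp26b1 difference was not tested.

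Aldh1a3, which oxidises retinal to retinoic acid (chromosome 7, 66390890 to 66427517, minus strand), was close to the floor. It had 11, 0, 10 and 0 counts in the control libraries NX, NY, QT and RM, and 0, 0, 10 and 0 counts in the knockouts in the same order. That is 0.682 and 0.765 CPM in the 2 control libraries with counts and 1.52 CPM in the knockout QT library. Only the QT prefix had counts in both genotypes. Aldh1a3 did not pass the low-count filter and was not tested. No difference between genotypes could be detected at this depth.

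Dhrs3, the retinal reductase (chromosome 4, 144892827 to 144928209, plus strand), was also scarce. Its control levels were 0.124 (NX), 1.92 (NY), 1.84 (QT) and 1.45 CPM (RM), from 2, 26, 24 and 8 counts. The knockout levels were 0 (NX), 2.57 (NY), 0 (QT) and 0.666 CPM (RM), from 0, 31, 0 and 4 counts. The genotypes overlapped, with the highest value of all in a knockout library and a low value in NX in both genotypes. The fit gave a log2 fold change of -0.67 with an SE of 1.21 (adjusted p = 0.9997, edgeR's quasi-likelihood test), which ran to -2.74 without the knockout NY library.

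Crabp1, a cytoplasmic carrier of retinoic acid (chromosome 9, 54764748 to 54773110, plus strand), had control levels of 36.6 (NX), 5.63 (NY), 6.81 (QT) and 9.63 CPM (RM). In the knockouts it was at 7.15 (NX), 2.15 (NY), 2.44 (QT) and 10.3 CPM (RM). The control NX library stood far above the other controls, and the genotypes overlapped through RM, where the knockout was the higher of the pair. In the other prefixes the control was higher, by 5.12-fold in NX, 2.61-fold in NY and 2.80-fold in QT. The means were 14.7 ± 14.7 CPM in controls and 5.51 ± 3.94 CPM in knockouts (SD, n = 4 each). The log2 fold change was -1.42 (SE 0.67, unadjusted p = 0.0548, adjusted p = 0.9997, edgeR's quasi-likelihood test), and without the control NX library it was -0.41.

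Crabp2, the carrier that hands retinoic acid to nuclear receptors (chromosome 3, 87948666 to 87953376, plus strand), was near the floor in both genotypes. Its counts were 16, 7, 11 and 0 in the controls NX, NY, QT and RM, and 11, 8, 5 and 0 in the knockouts. On the CPM scale these were 0.992, 0.518, 0.842 and 0 in controls and 0.749, 0.663, 0.761 and 0 in knockouts. Both RM libraries had no count, and the other 6 lay within a narrow band with no separation by genotype. Crabp2 did not pass the low-count filter and was not tested.

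**Figure D2:**
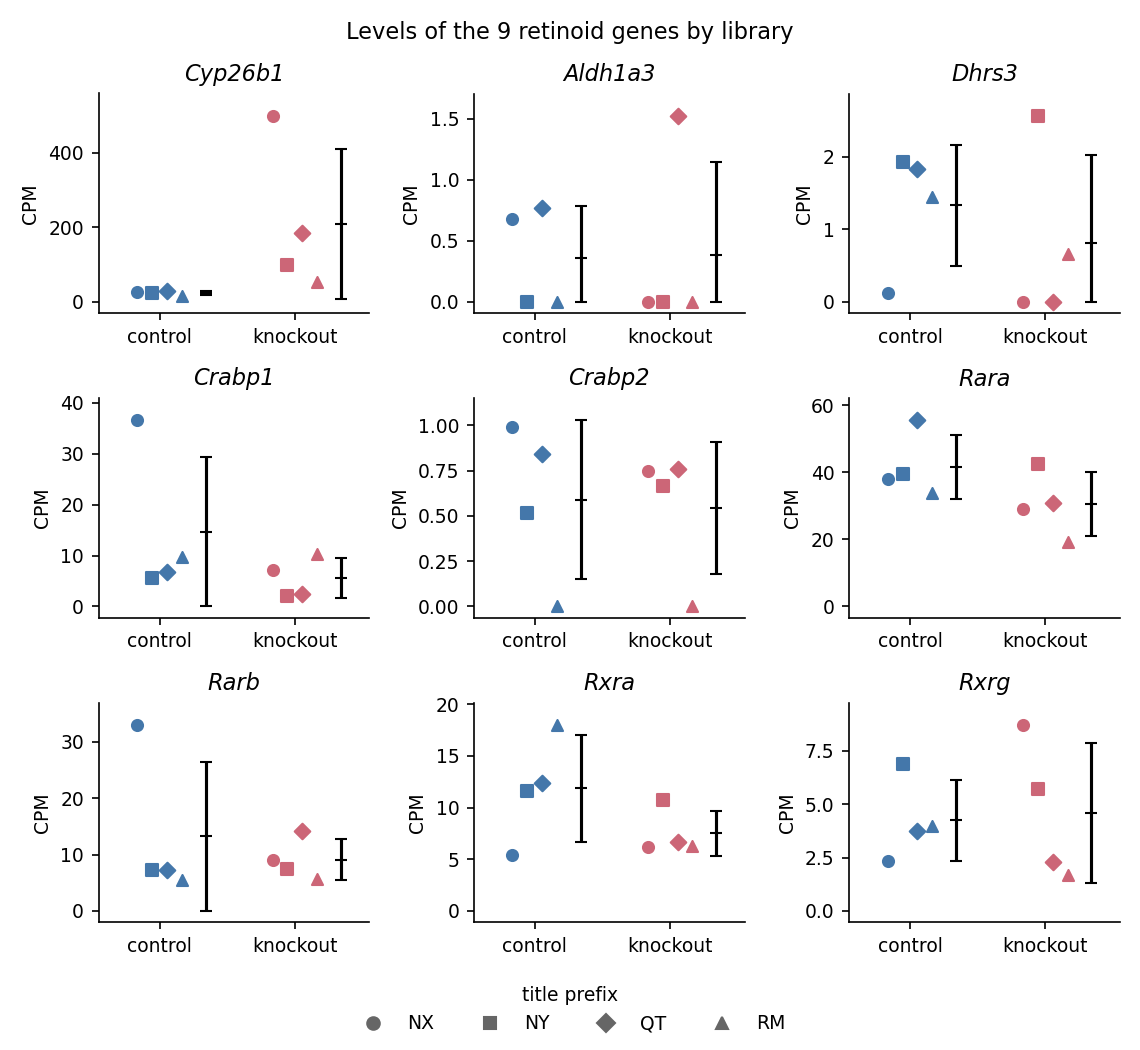
Level of each of the 9 genes (CPM, a separate linear axis per gene) in the 4 control and 4 knockout libraries, with the shape giving the title prefix. Bars to the right of the points show the mean and SD of 4 libraries, with the lower end cut at 0, and the genotypes are apart in the Cyp26b1 panel alone.

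Rara encodes the most widely expressed of the retinoic acid receptors (chromosome 11, 98927818 to 98974942, plus strand). Its control levels were 38.0 (NX), 39.5 (NY), 55.6 (QT) and 33.8 CPM (RM). Its knockout levels were 29.2 (NX), 42.6 (NY), 30.7 (QT) and 19.3 CPM (RM). The knockout was lower in 3 of 4 prefixes and higher in NY, and the ranges overlapped. The means were 41.7 ± 9.54 and 30.5 ± 9.53 CPM (SD, n = 4 each), with a log2 fold change of -0.45 (SE 0.27, unadjusted p = 0.123, adjusted p = 0.9997, edgeR's quasi-likelihood test). Its expected counts were fractional in all 8 libraries, so some of its fragments were shared with other loci and the level is uncertain to that extent.

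Rarb, the receptor gene with the response element shown above (chromosome 14, 16430839 to 16819156, minus strand), had control levels of 33.0 (NX), 7.33 (NY), 7.19 (QT) and 5.45 CPM (RM). In the knockouts it was at 9.12 (NX), 7.45 (NY), 14.2 (QT) and 5.66 CPM (RM). A single control library, NX, was high. The knockout was 1.97-fold its control in QT and about level with it in NY (1.02-fold) and RM (1.04-fold). The fitted log2 fold change was -0.55 (SE 0.56, adjusted p = 0.9997, edgeR's quasi-likelihood test), and without the control NX library it turned to 0.44. Exons of Top2b and Gm48162 overlap those of Rarb on the other strand, and counts without strand cannot separate them. The expected counts of Rarb were whole numbers in all 8 libraries, unlike those of Rara.

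Rxra, a general partner of RAR and of several other nuclear receptors (chromosome 2, 27676440 to 27762957, plus strand), had control levels of 5.39 (NX), 11.6 (NY), 12.4 (QT) and 18.0 CPM (RM). In the knockouts it was at 6.20 (NX), 10.8 (NY), 6.70 (QT) and 6.32 CPM (RM). The knockouts were close together apart from NY, the controls were spread, and the ranges overlapped because the control NX library was the lowest of all 8. The means were 11.9 ± 5.16 and 7.50 ± 2.19 CPM (SD, n = 4 each), with a log2 fold change of -0.65 (SE 0.41, unadjusted p = 0.139, adjusted p = 0.9997, edgeR's quasi-likelihood test).

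Rxrg, the RXR gene known for its expression in the striatum (chromosome 1, 167598384 to 167639623, plus strand), had control levels of 2.36 (NX), 6.88 (NY), 3.75 (QT) and 3.998 CPM (RM). In the knockouts it was at 8.72 (NX), 5.71 (NY), 2.28 (QT) and 1.66 CPM (RM). The knockout was 3.70-fold higher than its control in NX and lower in the other 3 prefixes. The log2 fold change of 0.13 (SE 0.60, adjusted p = 0.9997, edgeR's quasi-likelihood test) had no stable sign: it was -0.38 without the knockout NX library and -0.07 without the control NX library.

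Of the 9 genes, 7 passed the low-count filter and none of these passed the test over all genes, beside 0.0353% of tested genes called in either direction and 0.00706% called higher in the knockout. With an unadjusted p under 0.05 there was 1 of the 7 (Cyp26b1), beside 3.62% of all tested genes. Cyp26b1 was also the only one of the 7 whose knockout libraries all lay above all controls, beside 1.13% of tested genes. The 9 genes were chosen with earlier results of these data known, so these shares are a description and no test of the list. The other 6 tested genes had log2 fold changes from -1.42 to 0.13, of which 5 were below 0, with a median of -0.60 against -0.01 for all tested genes. None of the 6 passed, so their lower fitted levels are given as values only.

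Libraries of the NX prefix held the highest or lowest level for several of the 9 genes, but were not alone in this. Control RM was the lowest control for Cyp26b1, Crabp2, Rara and Rarb and the highest for Rxra. How often each library was extreme over all genes was not counted. Among the 4 controls, NX was the highest for Crabp1, Crabp2 and Rarb and the lowest for Dhrs3, Rxra and Rxrg. Among the 4 knockouts, NX was the highest for Cyp26b1 and Rxrg and, leaving out ties at 0, the lowest for Rxra. Crabp1, Crabp2 and Rarb, highest in control NX, were each second to 1 other knockout library in knockout NX. In control NX against knockout NX, Crabp1 was at 36.6 and 7.15 CPM, Crabp2 at 0.992 and 0.749 CPM, and Rarb at 33.0 and 9.12 CPM.

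Levels of different genes were compared on the length-scaled TPM values of the authors. In control libraries the order by median was Rara (28.6 TPM, range 20.3 to 42.6), Crabp1 (25.5, 16.51 to 129), Cyp26b1 (10.4, 5.13 to 12.2), Rarb (4.65, 3.26 to 24.7), Rxra (4.50, 2.35 to 5.49) and Rxrg (3.64, 2.58 to 6.07). Dhrs3 (2.07 TPM), Crabp2 (1.92) and Aldh1a3 (0.27) followed, each at or near 0 in at least 1 control library. The ranges of neighbours in this order overlapped except between Crabp1 and Cyp26b1 and between Rxrg and Dhrs3. In knockout libraries Cyp26b1 had the highest median of the 9, at 57.1 TPM (12.95 to 244), followed by Rara (25.0, 8.59 to 29.0) and Crabp1 (15.1, 6.11 to 30.0), whose ranges overlapped with it. TPM depends on the gene length assigned in each library, which for Aldh1a3 ran from 1415 to 3423 bases: its TPM was lower in knockout QT (0.91) than in control QT (1.27), although its CPM was higher.

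**Figure D3:**
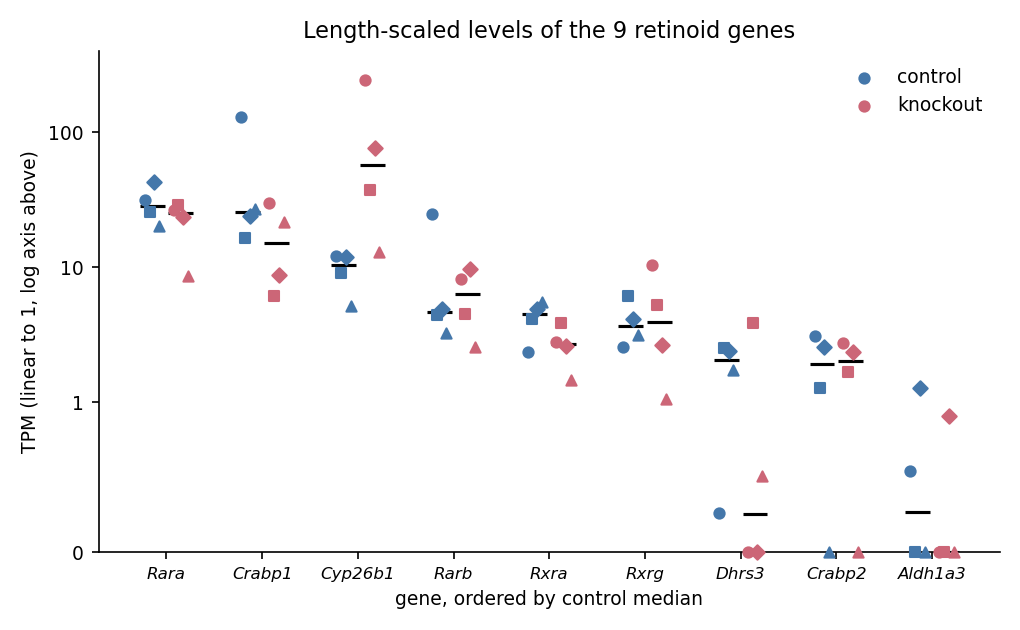
TPM of the 9 genes in each library (linear up to 1, log axis above), ordered by control median, with a bar at the median of each genotype and the shape giving the title prefix (circle NX, square NY, diamond QT, triangle RM). Cyp26b1 lies below Rara and Crabp1 in the controls, at a median of 10.4 TPM, and above both in the knockouts, at 57.1 TPM.

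The wider retinoid list held 59 gene names, with 46 of transport, metabolism, receptors and cofactors and 13 described as responding to retinoic acid. In the files 58 of these names were found, 32 passed the low-count filter, and 0 were called. A name not found may be another name of a listed gene. Of the 32, 10 were fitted higher and 22 lower, with a median of -0.14 on the log2 scale and a highest value of 1.53. Among all tested genes 50.6% were fitted lower. Of the 5 tested responding genes, 1 was fitted higher and 4 lower.

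The other enzymes of the same families were scarcely detected. Aldh1a2 and Cyp26c1 had no count in any library, while Aldh1a1 had 5 counts in control NY and Cyp26a1 had 2 counts in control QT, with 0 in every other library. Of the 3 Cyp26 genes only Cyp26b1 was above the floor in these libraries, and Aldh1a3 had the most counts of the 3 Aldh1a genes. Rbp4, the plasma carrier of retinol, had at most 3 counts in a library. Aldh1a2 is also a marker of meninges, and the 9 vascular and meningeal markers summed to 0.124 to 30.3 CPM in controls and 1.36 to 9.98 CPM in knockouts.

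Rdh10, the main retinol dehydrogenase of the embryo, was at 9.18 ± 2.76 CPM in controls and 7.31 ± 3.38 CPM in knockouts (SD, n = 4 each, log2 fold change -0.33). Fabp5, which can carry retinoic acid to PPAR receptors, was at 83.7 ± 26.4 and 78.5 ± 20.4 CPM (-0.09). Rarg was at 1.02 ± 0.711 and 1.29 ± 0.900 CPM (0.34) and Rxrb at 14.0 ± 1.36 and 10.9 ± 5.21 CPM (-0.35). None of these 4 had an unadjusted p under 0.05.

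**Figure D4:**
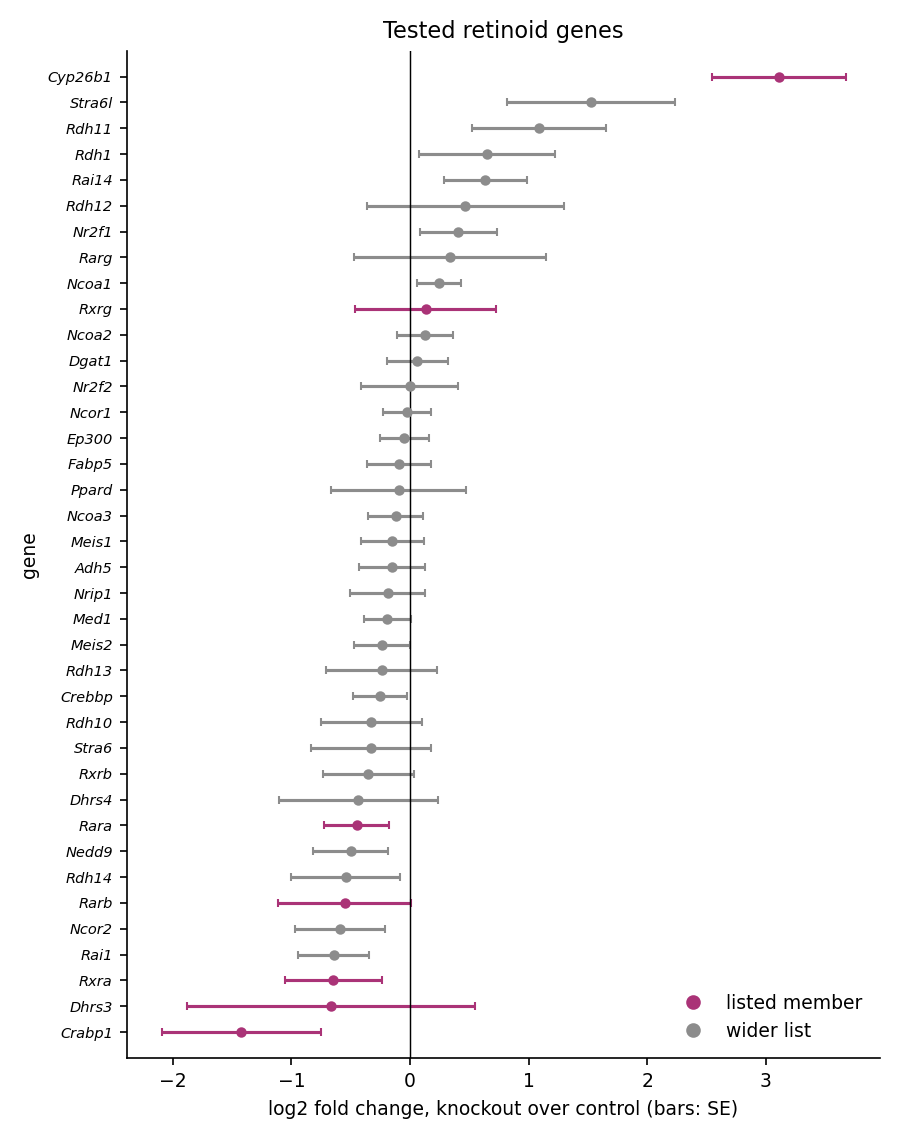
Log2 fold change of knockout over control with its SE for the 7 tested genes of the list of 9 (dark) and the tested genes of the wider list that are reported here (grey). Cyp26b1, at 3.11, lies apart from all others, which run from -1.42 to 1.53.

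The 5 genes whose log2 CPM was most like that of Cyp26b1 over the 8 libraries were Calcrl (Pearson r 0.973), Leprot (0.969), Hs6st2 (0.957), Lrch2 (0.955) and Zfp804a (0.949), among 12878 genes whose average log2 CPM was 1 or more. These r values describe 8 libraries that share the genotype difference, so they follow both the gap between genotypes and the order within the knockouts. All 5 had their highest level in the knockout NX library, as Cyp26b1 did. Calcrl, the receptor-like partner for CGRP and adrenomedullin, was at 323 (NX), 72.2 (NY), 85.4 (QT) and 32.9 CPM (RM) in knockouts, the same order of libraries as Cyp26b1 save for the size of the steps. Zfp804a, a zinc finger gene, was at 320.4, 67.1, 81.7 and 47.6 CPM in that order, against 17.8 to 43.1 CPM in controls.

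The other 3 moved over smaller ranges. Hs6st2, a heparan sulfate sulfotransferase, was at 61.9 (NX), 22.3 (NY), 30.9 (QT) and 23.3 CPM (RM) in knockouts and at 12.7 to 16.49 CPM in controls. Lrch2 was at 45.5 to 71.2 CPM in knockouts and 37.1 to 40.5 CPM in controls. Leprot, which shares its first exons with the leptin receptor gene, was at 22.6 to 32.6 CPM in knockouts and 19.1 to 21.3 CPM in controls. Of the 5, Calcrl alone passed the test (log2 fold change 4.72, adjusted p = 0.0482, edgeR's quasi-likelihood test), and since the genes were chosen for likeness their separation by genotype is a description.

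**Figure D5:**
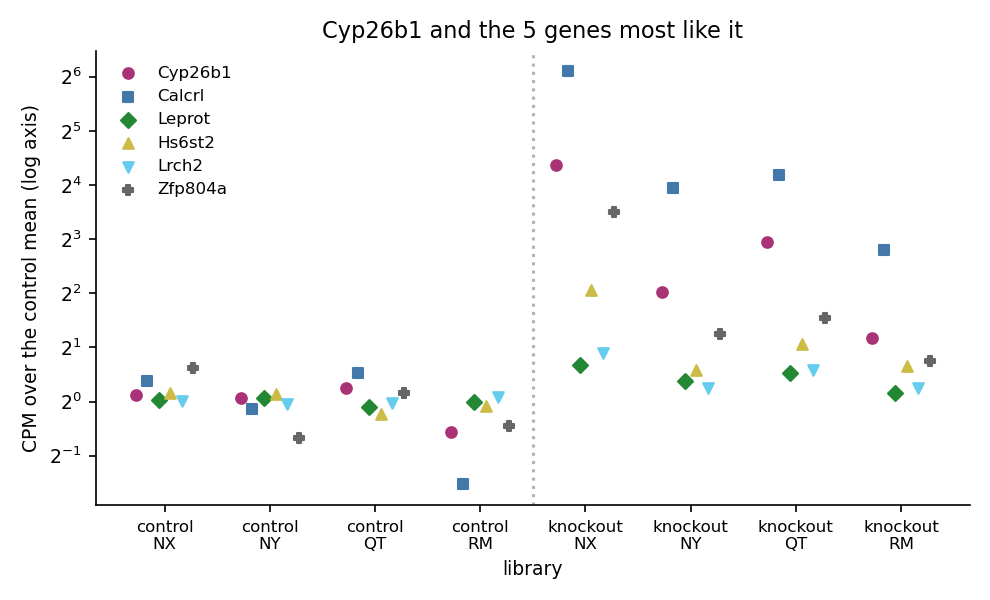
CPM divided by the gene's control mean (log axis, base 2) in each library for Cyp26b1 and the 5 genes with the highest Pearson r with it. The knockout NX library is the highest for all 6 genes, with Cyp26b1 at 499 CPM and Calcrl at 323 CPM.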

How the data were processed

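The authors deposited RSEM expected counts and TPM per gene for 8 libraries, per the file headers. Per the submitters' processing notes, they used Trimmomatic 0.33, Bowtie2 and RSEM 1.2.22 with build mm10, and which Bowtie2 version or annotation is not given in the sources used here. The NuGEN Ovation kit amplified the cDNA per the labels, and counts carry no strand. The series text speaks of triplicates, and all 4 libraries per genotype were used. The gene lengths (another column of the authors' files, in bases) were used as deposited.

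Expected counts were rounded, filtered (edgeR filterByExpr, minimum count 10), scaled by TMM and tested by genotype with edgeR 4.0.16 quasi-likelihood (R 4.3.3), with Benjamini-Hochberg adjustment over 14157 genes at 0.05. CPM values and floors use TMM-scaled totals. Alternatives used DESeq2 1.42.0 and limma 3.58.1, among others. The procedure was tested on simulated data. Named were the 9 genes, Tshz1, close family members, wider-list genes with an unadjusted p under 0.05, and the 5 genes most like Cyp26b1. A gene of the wider list is not reported here. Members and lists were chosen with earlier results of these data known. Positions are from GENCODE for GRCm38 and promoters from RefSeq.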

Additional observations from a re-analysis of the deposited data

Results flagged for a closer look

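In 37 groups of 4 libraries, each for 1 gene in 1 genotype, a library far from the other 3 was looked for, and 5 groups were marked. Chance gives about 1 in 20 for independent groups. These groups share libraries, and Zfp804a was chosen for its likeness to Cyp26b1, so the 5 of 37 is a description only. The 5 are not every such case in this report. Aldh1a3 in knockouts had counts in QT alone, and Stra6l in controls was at 5.27 CPM in RM, with the next control at 1.15 CPM. Crabp1 in the control NX library was at 36.6 CPM, with the next control at 9.63 CPM. Rarb in the control NX library was at 33.0 CPM, with the next control at 7.33 CPM. Zfp804a in the knockout NX library was at 320.4 CPM, with the next knockout at 81.7 CPM. Rxra in the knockout NY library was at 10.8 CPM, with the next knockout at 6.70 CPM. Crabp2 in the knockout RM library was at 0 CPM, with the next knockout at 0.663 CPM. Cyp26b1 was not among them: its knockout NX level of 499 CPM stood beside 185 CPM in QT.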

How the results depend on the processing

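Under all 22 alternatives Cyp26b1 was higher in the knockout, from 2.21 (without knockout NX) to 3.44 (without knockout RM) on the log2 scale. It passed at 0.05 with no low-count filter (3.13), in DESeq2 (3.12) and with a replicate block by title prefix (2.66, adjusted p = 0.0143), which are also the settings where 1 of the 9 genes, in place of 0, was called. Leaving out 1 library gave adjusted p from 0.0657 to 0.396, and all alternatives ran from 0.00201 to 0.9998. Rarb turned to 0.44 without both NX libraries and, with 1 library left out, ran from -0.84 to 0.44. Rxrg turned to -0.0701 with the replicate block, -0.00554 and -0.0911 on log2 TPM plus 1 or 0.1, and -0.57 without both NX libraries, and ran from -0.38 to 0.48 with 1 library left out. The number of genes called, 5 in the report, was 9 without composition factors, 19 with no filter, 28 with the replicate block, 39 in DESeq2, 2 in limma-voom, 2 in the robust fit, 10 on log2 TPM plus 1, 11 at an adjusted p under 0.1, 3 without both NX libraries, 0 without both NY, both QT or both RM libraries, and 0 to 5 with 1 library left out. The cause was not tested. The wider list had 0 calls under every alternative fitted.

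Same-prefix libraries deviated together with r of 0.385 (NX), 0.303 (NY), 0.066 (QT) and 0.45 (RM). The QT value was near 0, and knockout QT was about as close to control RM (0.072). These values do not settle whether the prefix marks pairs, so it was fitted as an alternative only. Dhrs3 could not be fitted without both NY libraries, and Aldh1a3 and Crabp2 rest on too few counts for a test.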

Other observations

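In the wider list, Lrat and Stra6l were singled out after their values were seen. Lrat, which esterifies retinol for storage, had 37, 6, 13 and 2 counts in the control libraries NX, NY, QT and RM and 0 in all 4 knockouts. Against a floor of 3 counts over the knockout group (0.0763 CPM), its pooled control level of 1.203 CPM gives a bound of at least 15.8-fold. This bound pools the libraries and takes no account of the spread between them, so it does not establish a difference. Lrat did not pass the low-count filter. With no filter its unadjusted p was 0.00145 and its adjusted p was 0.570 (edgeR's quasi-likelihood test). Without control NX, 21 control counts were left, a pooled level of 0.655 CPM and a bound of at least 8.58-fold. NX was the control library that was also highest for Crabp1 and Rarb.

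Stra6l, related to the retinol transporter Stra6, was at 0.558 (NX), 0.962 (NY), 1.15 (QT) and 5.27 CPM (RM) in controls and at 6.20, 4.06, 7.61 and 3.99 CPM in knockouts. The knockout was higher in NX, NY and QT and lower in RM, so the genotypes overlapped. The fitted value was 1.53 on the log2 scale (SE 0.71, unadjusted p = 0.0511, adjusted p = 0.9997, edgeR's quasi-likelihood test), the highest of the wider list.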
